A study of Homo sapiens with 30 samples.

Results

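Secreted glycoproteins of the extracellular matrix and laminin chains are made from long, abundant mRNAs in glioblastoma cells of mesenchymal character. The peaks and input counts of 9 such mRNAs, FN1, FBN1, LAMB1, LAMC1, LAMA4, SPARC, TNC, THBS1 and TGFBI, are described here, out of 62750 gene identifiers in the input count tables. They were taken by name as secreted matrix glycoproteins, with earlier results of these data known. A peak belonged to a gene when its centre lay within the gene on the same strand, and no peak was also assigned to another gene.

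The cells were U-87 MG, a long-established line from a human glioblastoma. The study asked which parts of the RNA-binding protein LARP6 contact RNA in living cells. Cells were transduced with a lentiviral, doxycycline-inducible and codon-optimised LARP6 carrying an N-terminal myc-tag, selected with puromycin, and used as stable lines. One variant was the full-length protein (FL). The others lacked the N-terminal region (ΔNTR), the C-terminal region (ΔCTR), the La-module (ΔLa-module) or the whole N-terminal domain (ΔNTD), which joins the N-terminal region and the La-module. Induction lasted 24 h at a doxycycline concentration of 60 ng/mL, and parental cells without a construct were the negative control. These lines still made their own LARP6, counted at 51.6 to 75.0 CPM in the 6 lines. Since the construct is codon-optimised, its reads need not count towards that gene, so this does not check which variant a line carried. iCLIP crosslinks protein to RNA with UV light and reads the contact positions after an anti-myc pull-down. It covered 18 samples, 3 for each line. They were analysed as 1 peak list per variant, in which 3 replicates were merged and peaks found in parental cells were removed. The input RNA of the lines was sequenced in 12 libraries, 1 long-RNA library per line with paired-end 150 nt reads (PE150) and 1 small-RNA library with single-end 50 nt reads (SE50). The SE50 libraries held few counts of these long mRNAs and served as an alternative only.

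Gene counts per PE150 library came to between 25027075 and 28692476. In these libraries the mesenchymal markers were all well above 0, from CHI3L1 at 84.1 to 111 CPM to VIM at 7039 to 8004 CPM. The astroglial markers GFAP and S100B were at or below 0.240 CPM, AQP4 and the oligodendroglial marker SOX10 had no counts, and the immune marker PTPRC had 1 or 2 counts. Other markers of these lists were present. The astroglial SLC1A3 was at 46.7 to 59.7 CPM, and the oligodendroglial and proneural PDGFRA and OLIG2 were at 10.1 to 13.3 and 1.46 to 2.54 CPM. No replicate spread could be had from merged peak lists or from 1 library per line. Intervals below are 95% counting intervals, which treat the peak score as a number of crosslinks and cover counting error only, and no difference was tested against replicate spread.

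Fibronectin, encoded by FN1, is assembled by cells into fibrils through integrins. Fibrillin-1, from FBN1, builds microfibrils. Laminins are heterotrimers of an alpha, a beta and a gamma chain that form the sheet of basement membranes, and LAMA4, LAMB1 and LAMC1 encode one chain of each kind. SPARC, tenascin-C (TNC) and thrombospondin-1 (THBS1) are matricellular proteins, which modulate how cells adhere to the matrix, and TGFBI is a secreted adhesion protein induced by TGF-beta. LARP6 itself is best known for binding collagen mRNAs, whose products share the matrix with these proteins.

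The sites with the highest FL peak of 6 members are shown, because FL, ΔNTR and ΔCTR each had a peak there. The highest FL peak by itself held 7.71% of the gene's FL score in FN1, 16.2% in TNC and 21.1% in TGFBI. It held 21.4% in LAMC1, 27.5% in SPARC and 35.3% in FBN1. Sequences were read from GRCh38 and are written 5′ to 3′ on the strand of the mRNA, with at most 29 nt around the peak centre. Capitals mark bases that lay in a peak of all 3 of these lists. The FN1 site was in the coding sequence of exon 31 of 46 (chr2:215383459-215383483, minus strand), and the FBN1 site was in the coding sequence of exon 64 of 66 (chr15:48415731-48415759, minus strand). The other 4 lay in the 3′UTR of the last exon, for LAMC1 at chr1:183144334-183144362 (plus strand), for SPARC at chr5:151663074-151663102 (minus strand), for TNC at chr9:115020811-115020839 (minus strand) and for TGFBI at chr5:136063467-136063495 (plus strand).
FN1, exon 31: aAATTGACAAACCATCCCAGATgca
FBN1, exon 64: GAATGCCTCAGCGCTCACATCTGCGGAGG
LAMC1, 3′UTR: TATGTAAATATACTTAGTCCTATTTCTAG
SPARC, 3′UTR: TCAAGGATGGTTTTGGGACTAGAGGCTCA
TNC, 3′UTR: gtacAGGGgtagtttgttttagaaccagc
TGFBI, 3′UTR: gcctgacATTCACTTCCAGAGAGGACCTA
The share of C and T in them ran from 41.4% for SPARC to 58.6% for LAMC1, and the longest uninterrupted pyrimidine run was 4 or 5 nt in each.

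A further 3 sites are shown because their score was lower, or absent, in the lists of both terminal deletions. They lay in the 5′UTR of FN1 (exon 1, chr2:215435822-215435850, minus strand), of TGFBI (exon 1, chr5:136028995-136029023, plus strand) and of TNC (exon 2, chr9:115091086-115091114, minus strand). Capitals mark bases in peaks of FL, ΔNTR and ΔCTR for FN1 and TGFBI, and bases of the FL peak for TNC, where the other lists had no peak.
FN1, 5′UTR: GTGgcaacttgcctcccggtgcgggcgtc
TGFBI, 5′UTR: ccctgGAGCCGCCCGCTTGCCCGTCGGTC
TNC, 5′UTR: AGTCTACTCTGTGCTTCTAAATCCCCAAT
Their C and T shares were 55.2, 65.5 and 65.5%. Other 5′UTR sites met this reason and are not shown, among them 1 in LAMC1 (chr1:183023684-183023712, plus strand). It had an FL peak of 8, no ΔNTR or ΔCTR peak and a C and T share of 51.7%.

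Most of these mRNAs carried LARP6 peaks, and fibronectin mRNA carried by far the most. The 9 genes held 161 FL peaks (exact Poisson, 137 to 188), 226 ΔNTR peaks (197 to 257) and 212 ΔCTR peaks (184 to 243), which was 1.12, 1.32 and 1.34% of the peaks in each list. A peak was present in 8 of the 9 genes for FL, 7 for ΔNTR and 9 for ΔCTR. For comparison, an exonic peak was found in 35.5, 36.2 and 38.5% of protein-coding genes that reached 1 CPM, and in 81.2, 83.8 and 85.9% of those that reached 100 CPM. As 8 of the 9 members were above 100 CPM in each PE150 library, the share of members with a peak was close to that of genes of like abundance.

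The lists without a La-module held very few of them. There were 4 ΔLa-module peaks and 4 ΔNTD peaks (1 to 10 each), all in FN1 and TGFBI, the members with the highest input level. An exonic peak was found in 2.46 and 1.43% of protein-coding genes that reached 1 CPM, and in 8.97 and 4.74% of those that reached 100 CPM. FN1 had ΔLa-module peaks of score 3 in exons 9, 31 and 37 and ΔNTD peaks of score 3 in exons 24 and 37. TGFBI had 1 ΔLa-module peak, of score 3 in exon 15, and ΔNTD peaks of 4 in exon 4 and of 3 in the 3′UTR. The exon 9 and exon 31 peaks of FN1 and the 3 TGFBI peaks fell on sites that FL also bound, including the strongest site of each gene.

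FN1 (ENSG00000115414.21, chr2:215360440-215436073) had 66 FL peaks with a summed score of 493, 85 ΔNTR peaks with 611 and 76 ΔCTR peaks with 716. They were spread along the whole mRNA. Of its 46 exons, 33 held an FL peak, 40 a ΔNTR peak and 36 a ΔCTR peak, and 27.0, 32.6 and 29.3% of the mRNA's 8390 nt lay in peaks. The highest FL peak held 7.71% of the gene's FL score, the lowest such share among the 7 members with more than 1 FL peak.

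FBN1 (ENSG00000166147.15, chr15:48408313-48645721), the longest of these mRNAs at 11609 nt, had 16 FL, 36 ΔNTR and 27 ΔCTR peaks with summed scores of 139, 208 and 257. Here 35.3% of the FL score came from the exon 64 peak. FL peaks were present in 12 of 66 exons, ΔNTR peaks in 27 and ΔCTR peaks in 21.

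The laminin chains differed from one another. LAMC1 (ENSG00000135862.6, chr1:183023420-183145592), the gamma 1 chain, had 18, 27 and 18 peaks with scores of 145, 147 and 214 for FL, ΔNTR and ΔCTR. LAMB1 (ENSG00000091136.15, chr7:107923799-108003213), the beta 1 chain, had 7, 8 and 13 peaks with scores of 33, 32 and 105. LAMA4 (ENSG00000112769.20, chr6:112107931-112254939), the alpha 4 chain, had 1 peak of score 3 in FL and 1 in ΔCTR, at the same site in exon 20, and none in ΔNTR.

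Among the matricellular mRNAs, TNC (ENSG00000041982.17, chr9:115019575-115118207) had 23, 30 and 32 peaks with scores of 136, 141 and 188. SPARC (ENSG00000113140.11, chr5:151661096-151686975) had 9, 15 and 13 peaks with scores of 102, 182 and 186. THBS1 (ENSG00000137801.11, chr15:39581079-39599466) had no FL or ΔNTR peak and 3 ΔCTR peaks, each of score 3, of which 2 lay in the coding sequence and 1 in the 3′UTR. A list with no peak allows up to 3.69 peaks (exact Poisson) at its depth, so the absence of THBS1 peaks in FL was within counting error of the 3 seen in ΔCTR.

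TGFBI (ENSG00000120708.17, chr5:136028988-136063818) had 21, 25 and 29 peaks with scores of 199, 316 and 376. Per kb of mRNA it carried more than any other member, at 73.4, 117 and 139, followed by FN1 at 58.8, 72.8 and 85.3. LAMA4 and THBS1 were below 1.2 per kb in every list.

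**Figure D1:**
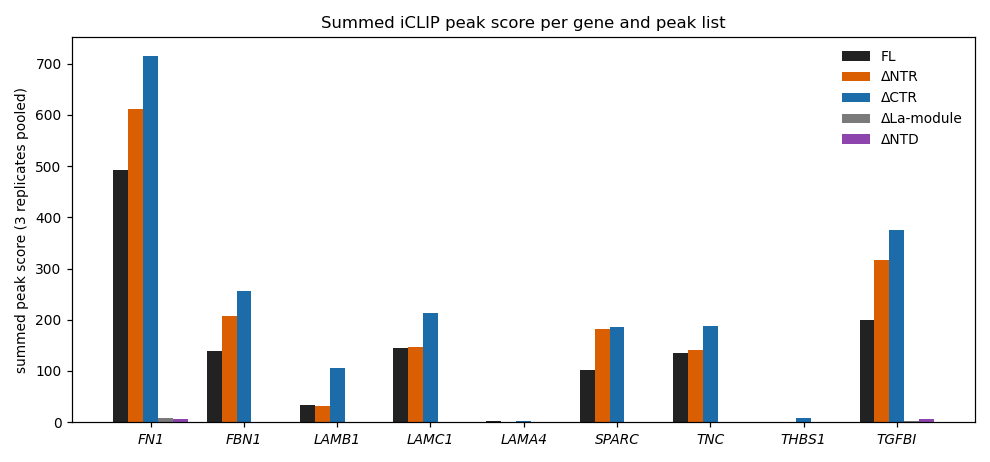
Bars show the summed peak score of each gene (vertical axis, from 0) in the 5 peak lists, each pooling 3 replicates. FN1 reached 493, 611 and 716 in FL, ΔNTR and ΔCTR, TGFBI 199, 316 and 376, and the ΔLa-module and ΔNTD bars were at 9 or below in every gene.

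Peaks in these mRNAs lay more often in coding sequence than in the lists as a whole. Coding sequence held 70.8% of the members' FL peaks (Wilson, 63.4 to 77.3%), 71.7% in the ΔNTR list (65.5 to 77.2%) and 76.9% in the ΔCTR list (70.8 to 82.1%). Over whole lists these shares were 36.5, 37.0 and 37.1%. The 3′UTR held 19.9, 22.1 and 18.9% of the members' peaks against 47.7, 49.8 and 50.8% in the lists. Coding sequence makes up most of these long mRNAs, and per kb the order was the other way round. Over the reference transcripts of the 9 genes, the FL score per kb was 16.7 in coding sequence and 24.3 in 3′UTRs. With the 3′UTR given priority over coding sequence where transcripts of a gene disagree, coding shares were 57.1, 57.1 and 58.0%, still above those of the lists.

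The individual mRNAs showed contrasting layouts. FN1 peaks were mostly coding, with 57 of 66 in FL, but the 690 nt of its 3′UTR carried an FL score of 72.5 per kb against 53.8 in coding sequence. LAMB1 had peaks in coding sequence, apart from 1 in the 5′UTR for FL and 1 in an intron for ΔNTR, and its 3′UTR has 152 nt. SPARC was the reverse. Of its 9 FL peaks 8 lay in the 3′UTR and 1 in the 5′UTR, and its 912 nt of coding sequence held no FL or ΔCTR peak and 1 ΔNTR peak of score 3. In TGFBI, 592 nt of 3′UTR held 137 of the FL score of 199, a density of 231 per kb against 21.4 per kb in coding sequence. FBN1 had no FL peak in its 3′UTR of 2677 nt, where ΔNTR had 5 peaks with a score of 23 and ΔCTR 2 with 21.

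**Figure D2:**
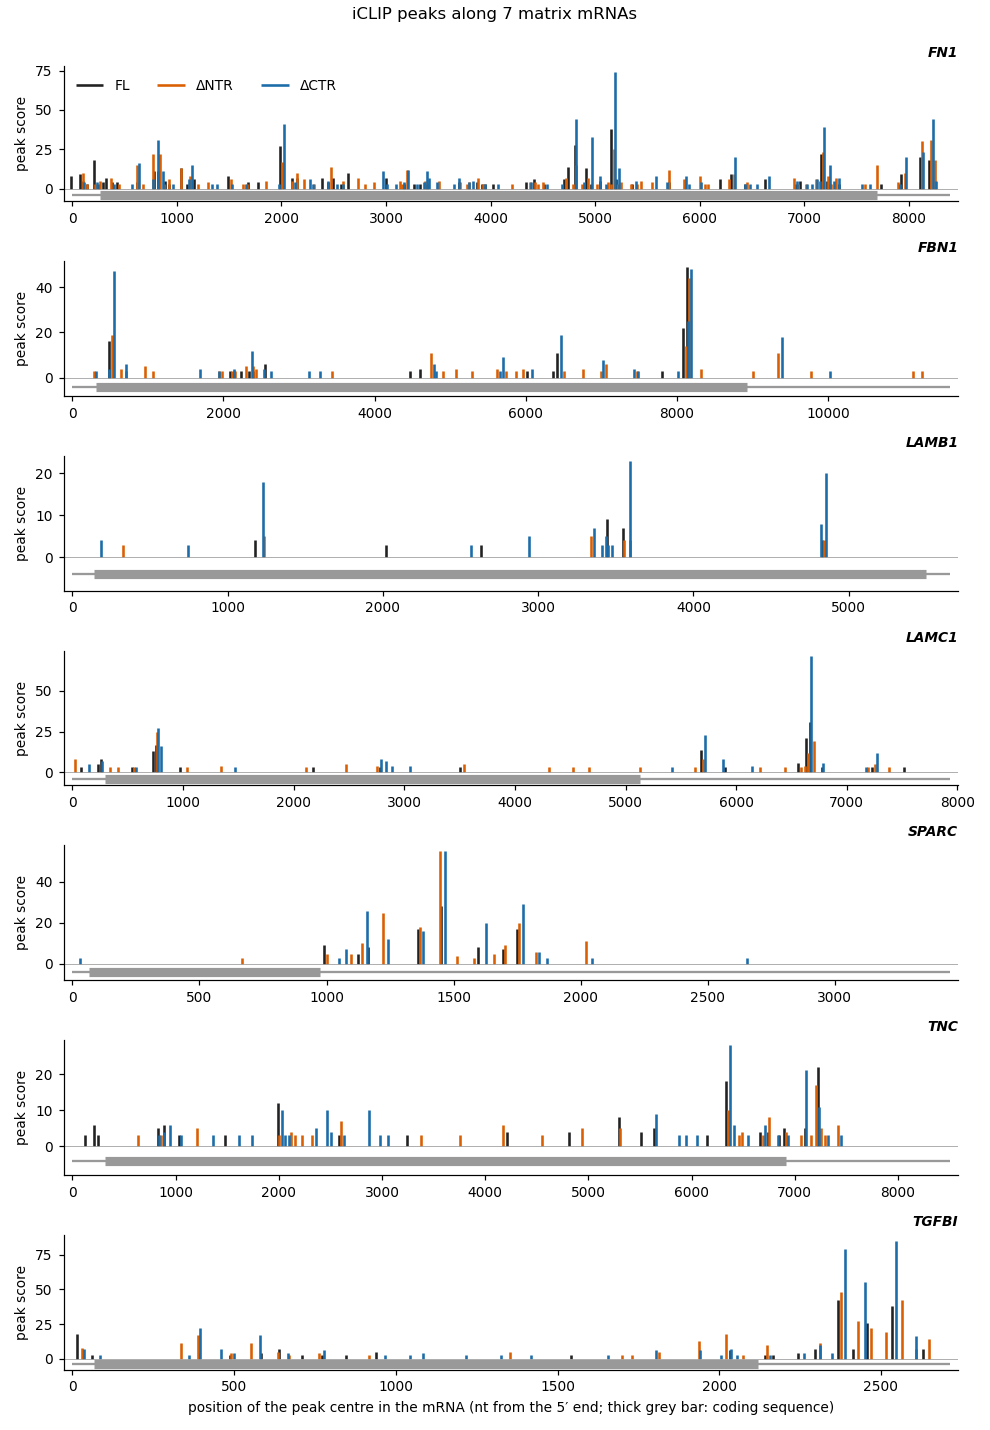
Each panel is the reference mRNA of 1 gene, with position from the 5′ end in nt on the horizontal axis and peak score on the vertical axis. Each line is a peak of FL, ΔNTR or ΔCTR, with lines of different lists set slightly apart, and the thick grey bar is the coding sequence. FN1 peaks run along the whole mRNA, and most SPARC peaks lie after the stop codon. The TGFBI peaks of 42 and 38 in FL stand in its 3′UTR.

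The score of the group was higher in both terminal deletions than in FL, and by more than the lists as a whole. Over the 9 genes the score came to 1250 for FL, 1637 for ΔNTR and 2054 for ΔCTR. The ratio to FL was 1.31 for ΔNTR (exact binomial, 1.22 to 1.41) and 1.64 for ΔCTR (1.53 to 1.76), while the ratio of the whole lists was 0.904 (0.896 to 0.912) and 1.16 (1.15 to 1.16). The members' share of the list score was thus 1.22% for FL, 1.76% for ΔNTR and 1.73% for ΔCTR. Depths of the iCLIP libraries are unknown, so the ratio over the whole list is the only scale for these values.

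Gene by gene, SPARC and TGFBI had the highest ΔNTR ratios and LAMB1 the highest ΔCTR ratio. The ΔNTR ratio was 1.78 for SPARC (1.39 to 2.3), 1.59 for TGFBI (1.33 to 1.91), 1.5 for FBN1 (1.20 to 1.87) and 1.24 for FN1 (1.10 to 1.40). It was 1.04 for TNC, 1.01 for LAMC1 and 0.970 for LAMB1, with intervals that included the ratio of the whole list. The ΔCTR ratio was 3.18 for LAMB1 (2.13 to 4.86), 1.89 for TGFBI (1.59 to 2.26), 1.85 for FBN1 (1.5 to 2.29), 1.82 for SPARC (1.42 to 2.35), 1.48 for LAMC1 (1.19 to 1.84), 1.45 for FN1 (1.29 to 1.63) and 1.38 for TNC (1.10 to 1.74), whose interval included the ratio of the whole list.

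As a background, the share of the list score was compared wherever FL and the deletion together summed to 50 or more in a gene, which leaves out LAMA4 and THBS1. The share was higher than in FL for 7 of 7 members in ΔNTR, where 49.8% of 803 genes were higher, and for 7 of 7 in ΔCTR, where 49.0% of 905 genes were higher. Among genes of at least 100 CPM the background was 56.3 and 54.0%. The median log2 change of the share was 0.45 and 0.65 over the members, against -0.00080 and -0.025 over all genes compared. Past 2-fold, 0 members were higher in ΔNTR (background 9.09%) and 1, LAMB1, in ΔCTR (background 5.64%), and 0 were lower in either (background 12.6 and 5.97%). In the unscaled score 6 of 7 members were above FL in ΔNTR (background 40.6%) and 7 of 7 in ΔCTR (background 63.4%).

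**Figure D3:**
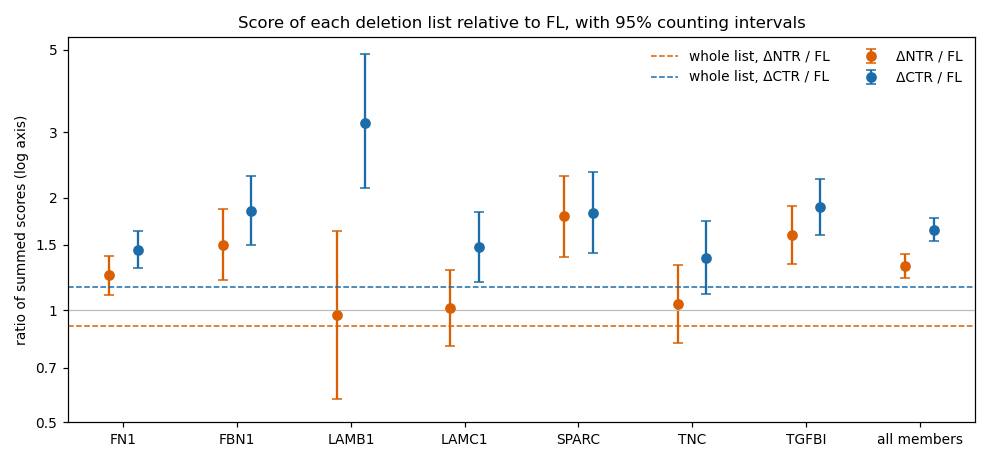
Points show the summed score of ΔNTR or ΔCTR divided by that of FL for 7 genes and for all 9 together, on a log axis, with 95% exact binomial counting intervals as bars. Dashed lines are the ratios of the whole lists, 0.904 and 1.16. Every point lies above the dashed line of its own list, and LAMB1 in ΔCTR is highest at 3.18.

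Sites bound in all 3 lists also had more score in both deletions than in FL. Overlapping peaks were joined into 335 sites, of which 70 held FL, ΔNTR and ΔCTR peaks. At these 70 the summed scores were 937, 1049 and 1474. The ΔNTR ratio was 1.12 (1.02 to 1.22) and the ΔCTR ratio 1.57 (1.45 to 1.71). At the 3268 such sites of all other genes the ratios were 0.686 (0.678 to 0.695) and 1.11 (1.10 to 1.12). The ΔNTR score was above FL at 50.0% of the members' sites and at 31.4% of the others, and the ΔCTR score at 62.9 and 52.0%.

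In ΔNTR the score exceeded FL at shared 3′UTR sites and not at shared coding sites, and both ratios stood above those of other genes. At the 17 shared 3′UTR sites of the members the ΔNTR ratio was 1.39 (1.21 to 1.59), against 0.667 (0.656 to 0.678) at those of other genes. At the 49 shared coding sites it was 0.980 (0.867 to 1.11), against 0.721 (0.705 to 0.738). For ΔCTR the ratio was 1.82 (1.6 to 2.07) in the 3′UTR and 1.5 (1.34 to 1.67) in coding sequence, against 1.18 and 1.09 in other genes.

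The strongest sites are described next. A peak of at least 20 in any list was found at 29 sites in 7 genes, 16 coding and 13 in 3′UTRs, and FL, ΔNTR and ΔCTR all had a peak at each. The score exceeded FL at 16 of them in ΔNTR and at 26 in ΔCTR. A site could enter only through the list where it was high, so these counts are partly set by the rule. Sites of other genes were not counted under it. The highest was in the TGFBI 3′UTR (chr5:136063383-136063589), scored 82, 108 and 148 in the order FL, ΔNTR, ΔCTR used from here on. The next TGFBI site downstream (chr5:136063604-136063723) had 38, 68 and 101. In the SPARC 3′UTR, the site at chr5:151663065-151663131 had 28, 55 and 55 and the one at chr5:151663269-151663427 had 13, 35 and 38. These 4 sites were all lowest in FL. Further SPARC 3′UTR sites at chr5:151662739-151662827 and chr5:151662865-151662974 had 17, 20 and 29 and 8, 8 and 20, and the TGFBI exon 4 site (chr5:136046333-136046382) had 4, 17 and 22.

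In FN1 the strong coding sites were split between higher and lower in ΔNTR, while over the whole gene the score was above FL in coding sequence (400, 495 and 613) and in the 3′UTR (50, 93 and 95). The site in exon 31 (chr2:215383382-215383484) had 44, 32 and 87, that in exon 28 (chr2:215386720-215386827) had 42, 18 and 44, that in exon 12 (chr2:215419285-215419362) had 27, 17 and 41, and that in exon 29 (chr2:215384864-215384938) had 16, 7 and 33. These 4 were lowest in ΔNTR. The other 4 strong coding sites were higher in ΔNTR than in FL. They lay in exon 4 (chr2:215431829-215431915) with 11, 22 and 37, exon 5 (chr2:215430775-215430855) with 11, 25 and 11, exon 38 (chr2:215375282-215375369) with 9, 15 and 20 and exon 42 (chr2:215367950-215367998) with 22, 23 and 39. In the 3′UTR the site at chr2:215360991-215361063 had 18, 49 and 49, the one at chr2:215361098-215361171 had 20, 30 and 23 and the one at chr2:215361258-215361372 had 9, 14 and 23.

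Among the basement membrane and microfibril mRNAs, the LAMC1 3′UTR site (chr1:183144271-183144400) had 52, 35 and 71, and the LAMC1 exon 2 site (chr1:183103356-183103406) had 30, 25 and 43. A second LAMC1 3′UTR site (chr1:183143339-183143384) had 14, 8 and 23. The FBN1 exon 64 site (chr15:48415714-48415765) had 49, 44 and 48, while the exon 3 site near the start codon (chr15:48613014-48613095) had 16, 19 and 47, and the exon 63 site (chr15:48420691-48420723) had 22, 14 and 25. In LAMB1 the sites in exon 25 (chr7:107940274-107940339, minus strand) and exon 30 (chr7:107929443-107929463) had 7, 8 and 23 and 4, 4 and 20, so its ΔCTR excess lay at several sites rather than 1. Its highest FL peak, of 9 in exon 24 (chr7:107951284-107951307), was met by ΔCTR with 3 and had no ΔNTR peak. In TNC, neighbouring 3′UTR sites differed, with 22, 25 and 14 at chr9:115020758-115020892 and 5, 3 and 21 at chr9:115020938-115021034, and the whole 3′UTR had 32, 37 and 38. Its exon 24 site (chr9:115030249-115030320) had 18, 10 and 28.

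The 5′UTRs showed the opposite order. The members' 5′UTR score was 95 with FL, 38 with ΔNTR and 33 with ΔCTR. The ratios were 0.400 (0.267 to 0.588) and 0.347 (0.226 to 0.521), against 1.00 (0.962 to 1.05) and 0.682 (0.650 to 0.715) for 5′UTRs over the whole lists. FN1 had 43, 16 and 8, TGFBI 18, 8 and 7, LAMC1 16, 8 and 12, and TNC 12, 0 and 0. SPARC had 3 in each list, LAMB1 3 in FL alone, and FBN1 3 in ΔNTR and in ΔCTR. In FN1, the site centred 154 nt before the start codon had 17, 13 and 4. The FL peak centred 33 nt before it scored 18, and the peaks that overlapped it scored 8 in ΔNTR and 4 in ΔCTR. Of that 8, a score of 3 was in a 5′UTR peak and the rest in a peak centred in coding sequence. Where FL and the deletion summed to 10 or more in the 5′UTR of a gene, a background chosen after these values were seen, 49.4% of 170 genes were lower in ΔNTR and 64.6% of 127 in ΔCTR, and the 4 members that qualified were lower in both. The FL score alone reached 10 in each of these 4 members. The deletion score did so only for FN1 in ΔNTR and LAMC1 in ΔCTR, so their lower values are partly set by this rule. FL values enter both comparisons, so these are not separate observations. The sums are small, with 14, 7 and 7 peaks.

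**Figure D4:**
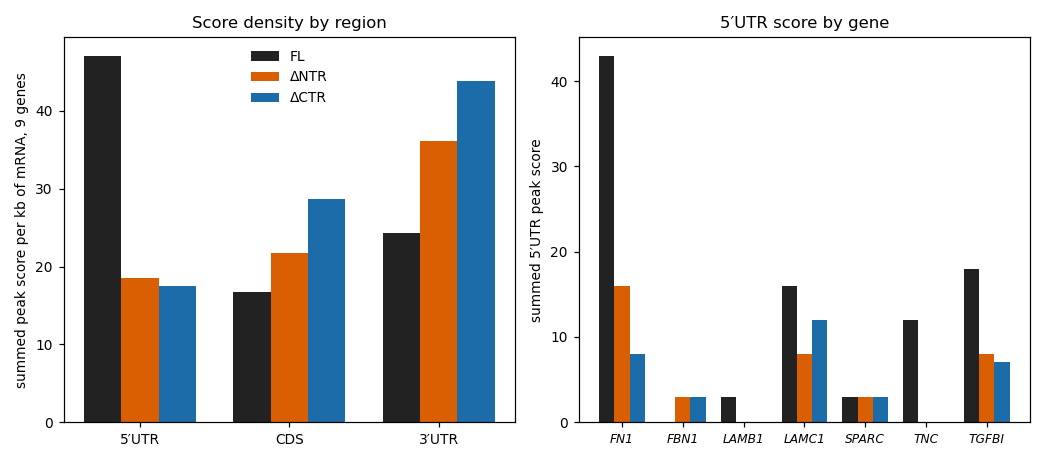
The left panel shows the summed peak score per kb of reference mRNA over the 9 genes in 5′UTR, coding sequence and 3′UTR, and the right panel the summed 5′UTR score of 7 genes, with bars from 0 for FL, ΔNTR and ΔCTR. The 5′UTR bars stand at 47.1 in FL, 18.5 in ΔNTR and 17.5 in ΔCTR, while the coding and 3′UTR bars are lowest in FL.

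Peaks of the lowest score, 3, were shared between lists more often than in other genes. A ΔNTR peak overlapped 62.7% of the members' FL peaks (Wilson, 55.0 to 69.8%) and a ΔCTR peak 59.0% (51.3 to 66.3%), against 35.3 and 37.9% of all FL peaks. Read from the other side, FL peaks overlapped 46.0% of the ΔNTR peaks and 43.9% of the ΔCTR peaks, against 30.1 and 34.4% over the whole lists. Since overlap rises with score, it was also taken at equal score. At a score of 3, ΔNTR overlapped 40.0% of 60 FL peaks (28.6 to 52.6%), against 16.8% of 7634 in other genes, and ΔCTR overlapped 41.7% (30.1 to 54.3%), against 17.9%. Between 4 and 9 the overlaps were 68.1 and 56.5%, against 43.2 and 47.6%, and the ΔCTR interval (44.8 to 67.6%) included the value of other genes. From 10 upwards they were 93.8 and 96.9%, against 88.1 and 93.1%, with intervals that included those values. The density of peaks differs with abundance, and its part in these shares was not tested.

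By gene, 9 of 9 SPARC peaks of FL were overlapped by ΔNTR, as were 76.2% for TGFBI, 71.2% for FN1, 50.0% for LAMC1, 47.8% for TNC, 43.8% for FBN1 and 28.6% for LAMB1. The remaining sites were weak. Of the 335, 39 were seen in FL alone with a highest score of 10, 81 in ΔNTR alone with a highest of 15, and 77 in ΔCTR alone with a highest of 11. Another 32 were shared by ΔNTR and ΔCTR but not FL. No share over all genes was taken for these gene-wise values and site counts.

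Peaks in alternatively spliced exons of FN1 and TNC were of low score. Fibronectin mRNA has cassette exons for extra domains B and A, which here are exon 25 (273 nt, chr2:215392931-215393203) and exon 33 (270 nt, chr2:215380811-215381080). Neither held an FL peak. Exon 25 had 1 ΔNTR peak of 3, and exon 33 had 2 ΔNTR peaks with a score of 9 and 2 ΔCTR peaks with 12. In TNC, exons 11 to 17, each of 273 nt and coding for alternatively spliced fibronectin type III repeats, held 3 FL peaks with scores of 4, 4 and 8, 5 ΔNTR peaks of at most 6 and no ΔCTR peak. How often these exons are included in the lines was not measured here, and their score per kb was not compared with other coding sequence.

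Base composition at the peaks was close to that of the lists. The C and T share in 31 nt around the centre averaged 51.2% for the members' FL peaks, 50.7% for ΔNTR and 49.7% for ΔCTR. Over list peaks in coding sequence and UTRs it was 52.5, 52.8 and 51.9%. In coding sequence alone the members had 50.1, 48.9 and 48.9%, against 49.9, 50.3 and 49.6%. Windows of members followed the spliced mRNA where the centre lay in it, and those of the lists followed the genome. The reference mRNAs themselves had 48.0%. The 14 FL peaks in 5′UTRs averaged 58.5% ± 14.3 (SD over peaks), against 49.4% in the members' 5′UTR sequence and 54.4% for 5′UTR peaks of the whole list. Windows in a gene can overlap, so they are not independent.

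Input RNA asked whether the mRNAs themselves changed with the variants. Relative to the parental library, 0 of 9 members passed 2-fold in any of the 5 lines. Over 15076 genes, 0.0531, 0.677, 0.0663, 0.312 and 0.245% were 2-fold higher and 0.0, 0.0464, 0.00663, 0.073 and 0.0663% 2-fold lower in FL, ΔNTR, ΔCTR, ΔLa-module and ΔNTD. Values below are CPM on TMM-scaled library sizes, with log2 fold changes on the log2(CPM + 1) scale. The 5 comparisons share 1 parental library, so a direction seen in all of them is not 5 separate observations, and in bulk RNA fewer cells expressing a gene cannot be told apart from less RNA per cell.

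TGFBI had the largest increase. It was at 1975 CPM in parental cells, and FL and the ΔCTR line were next at 2126 and 2147. ΔLa-module had 2299, ΔNTD 2419 and ΔNTR 2695. All 5 induced lines were above parental, by 0.11 to 0.45 on the log2 scale. FN1 was at 5446 CPM in parental cells, 5679 in ΔNTR and 5030 in FL, and ΔCTR, ΔLa-module and ΔNTD followed at 4566, 4453 and 4372, so it was above parental in ΔNTR alone and lowest in ΔNTD, at a log2 change of -0.32. FBN1 was also highest in ΔNTR, at 1156 CPM against 900.2 in parental cells and 950.7 in FL.

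The laminin chains LAMB1 and LAMC1 and the matricellular SPARC were below parental in all 5 lines, by small amounts. LAMB1 was at 415 CPM in parental cells and 352 to 408 in the others, LAMC1 at 679.8 and 593 to 631, and SPARC at 669.5 and 561 to 645. TNC was above parental in all 5, at 1595 CPM against 1640 to 1807. THBS1 had the largest decrease, from 154 CPM to 115 in ΔCTR, a log2 change of -0.42, and stood at 162 in ΔNTR. LAMA4 was the lowest member, at 45.3 to 59.2 CPM. Over genes of at least 100 CPM in the 6 libraries the SD of the log2 change was 0.13 to 0.21. Of the 45 member changes, 19 were beyond 1 SD of their line and 4 beyond 2 SD, namely THBS1 in FL and ΔCTR, TGFBI in ΔNTR and LAMA4 in ΔLa-module. LAMA4 lies below the 100 CPM of the genes that gave this SD. The share of other genes beyond these limits was not taken, so the counts have no background.

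Per kb of mRNA, the median level over the 6 lines was 820 CPM per kb for TGFBI, 572 for FN1, 199 for TNC, 171 for SPARC, 82.6 for FBN1, 77.3 for LAMC1, 67.6 for LAMB1, 18.7 for THBS1 and 7.56 for LAMA4. TGFBI and FN1 did not overlap over the lines (728 to 994 and 521 to 677). TNC (188 to 213) and SPARC (163 to 194) overlapped, as did FBN1 (75.2 to 99.5) and LAMC1 (74.8 to 85.7), so the order within these pairs is not set by the spread over lines. The genes most like the mean profile of the members over the 6 lines, among 2156 genes of at least 100 CPM, were MPRIP (Pearson r = 0.97), PTPA (0.97) and FHOD1 (0.95), with 1 library per point. They are the highest of 2156 correlations over 6 points, and no background was taken. That mean spanned only -0.076 to 0.098 on the log2 scale and joins members that moved in opposite directions, so it does not stand for each of them.

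**Figure D5:**
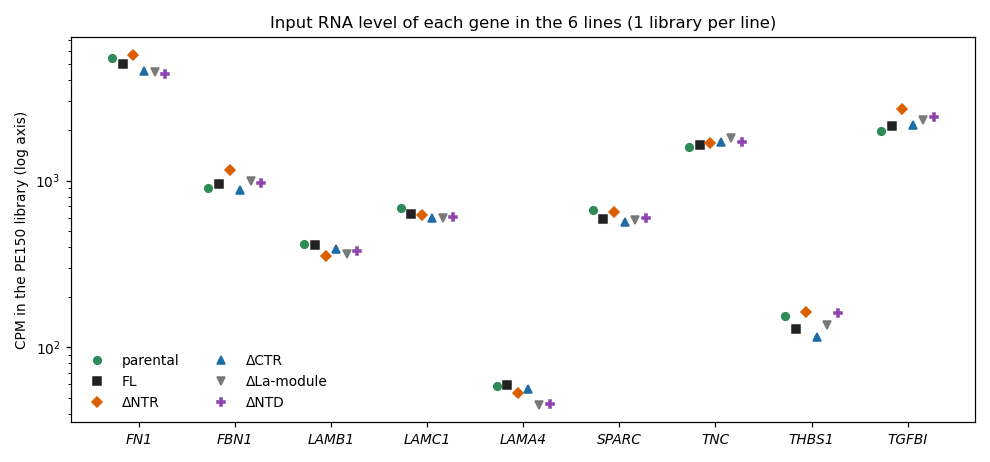
Points show CPM in the PE150 library of each line on a log axis, 1 library per line and no error bar. The 6 lines lie close together for every gene. The widest spread is for THBS1, 115 to 162 CPM, and TGFBI runs from 1975 in parental cells to 2695 in ΔNTR.

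Divided by input counts, the score of the group was close to the median of all genes with a peak in FL and above it in the deletions. It was above the median of such genes of at least 100 CPM in each list, FL included. With the formula of the study, score per 1000 PE150 counts of the same line, the 9 genes together had 3.85, 5.03 and 6.90. The median over genes with a peak was 3.65, 3.98 and 4.25, and over those of at least 100 CPM it was 2.54, 3.18 and 3.17. Taken singly, 3, 5 and 6 of the 9 members were above the first of these medians, and 7 above the second in each list. LAMC1 was highest in FL and ΔCTR, with 8.19, 9.52 and 13.3, and SPARC had 6.22, 11.3 and 12.2. FBN1 had 5.21, 7.21 and 10.9, and LAMB1 2.88, 3.65 and 10.0.

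The most abundant members gave lower values on this scale than LAMC1, SPARC and FBN1. The least abundant, THBS1 and LAMA4, gave the lowest. FN1 had 3.49, 4.31 and 5.79, TGFBI 3.33, 4.69 and 6.47, and TNC 2.96, 3.36 and 4.08. THBS1, with 3618 counts in the FL line and no FL peak, was listed at 0, 0 and 2.90, and LAMA4 at 1.81, 0 and 1.98. Dividing by input changed the ratio to FL for the 9 genes from 1.31 to 1.30 in ΔNTR and from 1.64 to 1.79 in ΔCTR, with 1 input library per line. LAMC1 mRNA thus carried more score per count than FN1 mRNA in each list, although it held fewer peaks.

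Other matrix glycoprotein mRNAs, mostly less abundant, had a lower summed score than the 9 members. Of 61 further genes listed, 39 reached 1 CPM and 7 were above 100 CPM in all 6 libraries. Of the 39, 19, 13 and 18 had an FL, ΔNTR or ΔCTR peak, with summed scores of 390, 337 and 484. FBLN1, which did not reach 1 CPM, had a ΔCTR score of 3 besides. Of all protein-coding genes that reached 1 CPM in the line, 35.5, 36.2 and 38.5% had an exonic peak. Abundance and score did not always go together, as SPOCK1, at 307 to 367 CPM, and FBN2, at 67.9 to 106 CPM, had no score in any list. The highest FL scores were those of LTBP1, a latent TGF-beta binding protein (90, 36 and 73), SMOC1, a SPARC relative (84, 37 and 99), LTBP3 (56, 82 and 63), SPP1, osteopontin (51, 47 and 95), and IGFBP3, an insulin-like growth factor binding protein (33, 79 and 64). LTBP1, SMOC1 and SPP1 were lowest in ΔNTR, and LTBP3 and IGFBP3 were highest there. IGFBP3 alone passed 2-fold in input RNA, from 321 CPM in parental cells to 678 in ΔNTR, a log2 change of 1.08, and it had the only ΔLa-module score of the list, 9.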

How the data were processed

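Peaks of myc-LARP6 iCLIP in U-87 MG cells and input RNA counts were analysed. Per the paper's methods and the submitters' processing notes, the authors mapped reads with STAR to GRCh38, removed PCR duplicates with UMI-tools, called peaks per replicate with Clippy, merged the 3 replicates with bedtools 2.30.0, summed their scores and subtracted peaks of parental cells. The deposited score is that sum, with a minimum of 3. The deposited counts are STAR 2.7.10b reads per gene. The column for the reverse strand was used for PE150 and the forward one for SE50, as their totals showed. SE50 totals were 6181270 to 10307756, and members had 0 to 138 counts in these small-RNA libraries.

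Here, peaks were assigned by their centre to GENCODE v44 genes on the same strand (61918 of 62750 count identifiers matched). Regions were set in the order coding sequence, 5′UTR, 3′UTR, non-coding RNA, intron over all transcripts, and densities used 1 reference transcript per gene. Counts were scaled with edgeR 4.0.16 (TMM), with a pseudocount of 1 CPM and genes of at least 1 CPM in any library. Assignment and fold changes were tested on simulated data. Intervals were exact Poisson, exact binomial or Wilson. The members, gene lists and named-site rule were chosen with earlier results of these data known. Named were all members, each one's highest FL peak, sites with a peak of at least 20 or a ΔLa-module or ΔNTD peak, and of other matrix genes the 5 with the highest FL score and any past 2-fold. The text adds 5′UTR and other sites chosen after their values were seen.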

Additional observations from a re-analysis of the deposited data

How the results depend on the processing

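No paired analysis was possible because merged peak lists carry no replicate number, and input lines have 1 library each, so no replicate could be left out either. Of 412 recomputed values, 325 stayed within their interval or within 1.5 times the count and 87 moved. The ΔNTR and ΔCTR score ratios of the group stayed above 1 in each setting. Of the 45 member fold changes in input RNA, none of them 2-fold in PE150, 24 changed sign in the SE50 small-RNA libraries (TGFBI in FL from 0.11 to -0.96, FN1 in ΔNTD from -0.32 to 0.35), 1 with unstranded counts and 0 under each of the 4 other settings. With scores above 3, peaks numbered 101, 135 and 126 in FL, ΔNTR and ΔCTR, 0 in ΔLa-module (score 0) and 1 in ΔNTD (score 4). The ΔCTR ratio to FL was 1.77 without FN1 and 1.79 after division by PE150 counts. Leaving out each other gene kept the ratios at 1.26 to 1.36 for ΔNTR and 1.6 to 1.68 for ΔCTR. With 3′UTR placed before coding sequence, coding shares were 57.1, 57.1 and 58.0% and 3′UTR shares 33.5, 36.7 and 37.7%. Asking for 50% of both peaks lowered the overlap of FL peaks to 37.3% for ΔNTR and 34.8% for ΔCTR. SE50 counts, few for these genes, gave 6684, 6154 and 6847 score per 1000 counts, and members past 2-fold numbered 1 in FL (FN1) and 2 in ΔLa-module (FN1 and TGFBI), each lower. Genes past 2-fold over the transcriptome were 8, 109, 11, 58 and 47 in FL, ΔNTR, ΔCTR, ΔLa-module and ΔNTD, 152, 408, 185, 308 and 297 with a pseudocount of 0.1, and 220, 185, 182, 267 and 139 in SE50. At 1.5-fold, other matrix genes past the threshold numbered 1, 7, 1, 5 and 4. The causes were not tested.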
